A study of Mus musculus with 10 samples.

Results

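Mitosis genes are the genes whose products condense the chromosomes, build the spindle, hold anaphase until every chromosome is attached, and cut the cell into daughters. The set described here holds 41 such genes, listed by name, and its members were the loci of status OK in both deposited tables whose gene column names one of them. All 41 genes were found, on 43 loci (Cdc25c has 3), out of 10583 loci that had this status in both. The RNA came from skin keratinocytes of FVB/N mice, taken at postnatal day 4 and separated by flow cytometry into a basal and a suprabasal fraction. Each layer had 3 samples from wild type mice and 2 from bitransgenic HGPS mice. These mice model Hutchinson-Gilford progeria and make progerin, a truncated lamin A. The labels do not name the transgene's driver. In the published form of this model, a Krt5 promoter drives the transactivator that switches on a human lamin A transgene, so that progerin is made in basal keratinocytes and their descendants. The sample titles share stems between the layers, 3 in wild type and 1 in bitransgenic mice, and no label states that 1 stem is 1 animal.

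The authors deposited 1 table per layer with 1 level per genotype and locus. The level is read here as FPKM, fragments scaled by transcript length and library size. Where levels are given in pairs within a layer, the wild type value comes before the bitransgenic one. No level has its own spread, and sample depth is unknown. The ± after a log2 fold change is the standard error (SE) implied by the authors' p-value. No source used here states which spread that p-value measures. Since no label states that the samples of a group are separate animals, the spread may be technical. A locus was called when the authors' q, their p adjusted for the number of loci, was under 0.05. Each layer has its own table, and no source used here gives a scaling common to both, so a ratio between layers is a description with no test. The RNA of a sorted fraction is a bulk measure, in which fewer dividing cells and less RNA per dividing cell cannot be told apart.

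Most mitosis genes are silent or low through G1 and S phase and peak in G2 and M. As background, their promoters commonly hold a cell cycle homology region (CHR), through which the DREAM complex represses them early in the cycle and the MYBL2-MuvB and FOXM1 complex activates them late, and CCAAT boxes bound by the factor NF-Y. In epidermis, division is a property of basal keratinocytes, which lie on the basement membrane, while suprabasal cells leave the cycle as they differentiate. At postnatal ages some cells just above the basal layer still divide.

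Promoter sequence was a feature that the choice of genes did not use. RefSeq promoters (build GRCm38.p6, from 250 bases before to 50 bases after the start) were matched for 34 of the 41 genes. The CHR form TTTGAA, searched on both strands, occurred in 27 of 34 member genes (79.4%) against 20.2% of all 27025 genes with a promoter. The form TTTAAA, which reads the same on both strands, occurred in 9 of 34 (26.5%) against 14.9%. The CCAAT box, searched on both strands, occurred in 26 of 34 (76.5%) against 41.1%, and in 60.6% of 104 other mitosis genes and 24 of 37 S phase genes (64.9%). A TTTGAA centred within 50 bases of the start was present in 24 of 34 member genes (70.6%), in 5.94% of all genes and in 2 of 37 S phase genes (5.41%). TTTGAA and CCAAT occurred together in 23 of 34 member genes (67.6%) and in 7.97% of all genes. Mad2l1, Nuf2 and Nusap1 held none of the 3 motifs in the searched window, which says only that these letters are not there. Among 104 other genes of mitosis with a promoter the share with TTTGAA was 39.4%, between that of the members and that of all genes, and among S phase genes it was 10.8%.

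The 200 bases before the annotated start are shown for 6 genes: Top2a and Ect2, the members called between genotypes, Ccnb1, Bub1 and Smc2, the members with the highest basal over suprabasal ratio in wild type cells that have a matched promoter and were not called, and Nuf2, which lacks the motifs. Capitals mark the CHR form TTTGAA, which reads as TTCAAA where it lies on the opposite strand, the CHR form TTTAAA, and the CCAAT box, which reads as ATTGG where it lies on the opposite strand. All are written 5′ to 3′ on the strand of the gene. They lie at chr11:99024190-99024389 for Top2a, chr3:27153879-27154078 for Ect2, chr13:100786487-100786686 for Ccnb1, chr2:127831860-127832059 for Bub1 and chr1:169531465-169531664 for Nuf2, all on the minus strand, and at chr4:52439021-52439220 on the plus strand for Smc2.
Top2a: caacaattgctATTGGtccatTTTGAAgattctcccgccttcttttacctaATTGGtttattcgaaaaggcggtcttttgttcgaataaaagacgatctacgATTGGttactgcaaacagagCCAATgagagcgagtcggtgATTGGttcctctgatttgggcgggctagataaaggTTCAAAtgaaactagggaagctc
Ect2: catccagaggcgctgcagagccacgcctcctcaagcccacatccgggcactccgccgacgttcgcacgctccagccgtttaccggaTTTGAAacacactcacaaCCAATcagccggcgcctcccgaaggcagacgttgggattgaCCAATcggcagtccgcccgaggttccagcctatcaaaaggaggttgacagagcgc
Ccnb1: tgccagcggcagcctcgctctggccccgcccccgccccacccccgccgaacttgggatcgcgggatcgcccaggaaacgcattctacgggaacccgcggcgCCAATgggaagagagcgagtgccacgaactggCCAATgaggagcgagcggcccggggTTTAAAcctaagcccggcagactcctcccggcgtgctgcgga
Bub1: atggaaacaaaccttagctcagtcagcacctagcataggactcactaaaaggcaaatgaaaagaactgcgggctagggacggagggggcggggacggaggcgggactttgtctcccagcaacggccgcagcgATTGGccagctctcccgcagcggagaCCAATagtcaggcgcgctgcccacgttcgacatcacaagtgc
Smc2: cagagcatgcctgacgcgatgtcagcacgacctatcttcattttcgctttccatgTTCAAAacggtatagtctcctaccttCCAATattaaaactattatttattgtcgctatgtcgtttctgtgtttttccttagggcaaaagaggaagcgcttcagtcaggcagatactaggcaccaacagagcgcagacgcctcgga
Nuf2: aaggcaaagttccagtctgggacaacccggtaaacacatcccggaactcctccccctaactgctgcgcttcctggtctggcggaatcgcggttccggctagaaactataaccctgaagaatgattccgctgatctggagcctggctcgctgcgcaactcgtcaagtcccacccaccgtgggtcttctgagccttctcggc

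Top2a held 5 CCAAT boxes and 2 TTTGAA elements in these 200 bases, the nearer of which began 23 bases before the start. Ect2 held TTTGAA and 2 CCAAT boxes. Ccnb1 held 2 CCAAT boxes upstream of a TTTAAA that began 42 bases before the start, and Bub1 held 2 CCAAT boxes and neither CHR form. Smc2 held 1 TTTGAA and 1 CCAAT box in the bases shown, both more than 100 bases upstream. Past the bases shown, a further TTTGAA began 26 bases after the start in Smc2 and 39 bases after it in Ect2. A match is a description of the letters and not evidence that a factor binds there.

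**Figure D1:**
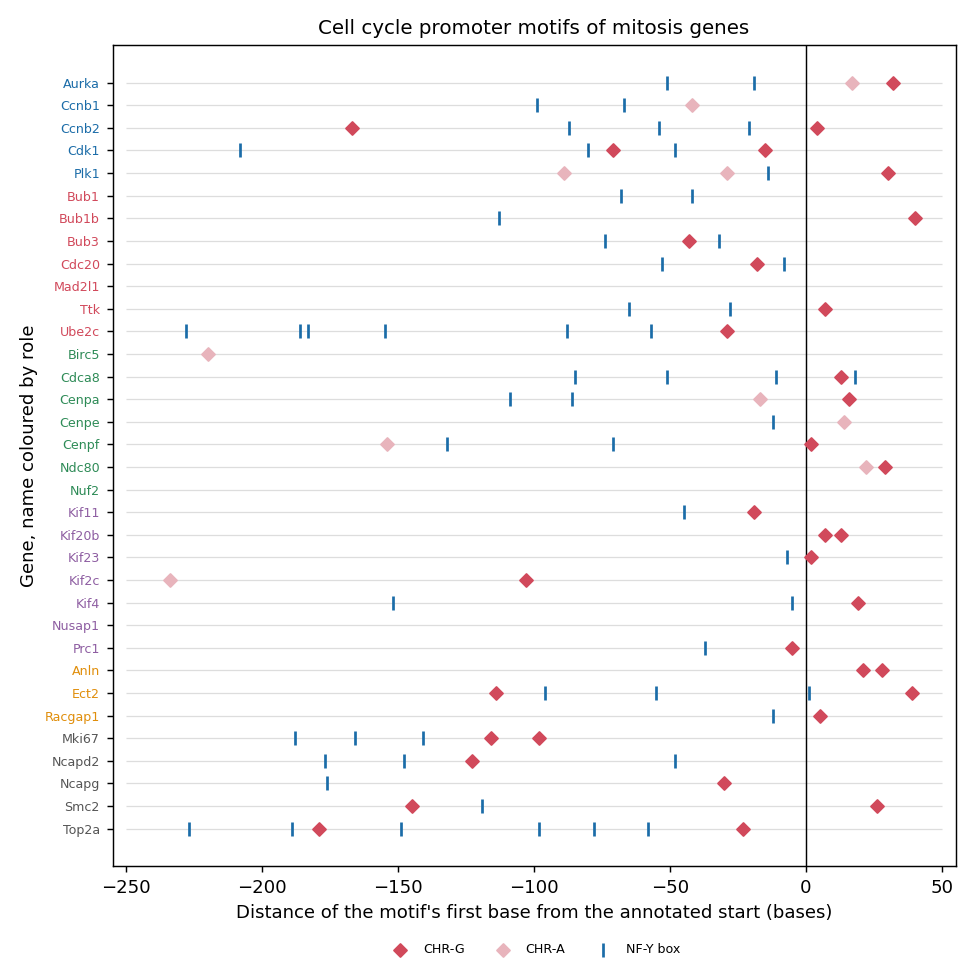
Positions of the promoter motifs in the 34 mitosis genes with a matched RefSeq promoter, 1 row per gene, with the distance of the motif's first base from the annotated start in bases on the horizontal axis and gene names coloured by role. Dark red diamonds are the TTTGAA form of the CHR, pale diamonds the TTTAAA form and blue bars CCAAT boxes: the diamonds gather around the start, the bars lie mostly upstream of it, and the lines of Mad2l1, Nuf2 and Nusap1 are empty.

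Most mitosis genes had higher levels in basal than in suprabasal cells in both genotypes. In wild type cells 42 of 43 loci had the higher level in the basal fraction, and 34 of 43 were at least 2-fold higher there. Over all 10583 loci the same shares were 52.8% higher and 6.88% at least 2-fold higher. In bitransgenic cells 40 of 43 loci were higher in basal cells and 38 of 43 at least 2-fold, against 51.6% and 8.49% of all loci. The median ratio of the members was 2.76-fold in wild type and 2.86-fold in bitransgenic cells, where the median over all loci was 1.03-fold in wild type and 1.02-fold in bitransgenic cells. The median level of the members was 26.7 FPKM in wild type and 24.6 FPKM in bitransgenic basal cells, and 9.23 and 9.62 FPKM in the suprabasal cells of the same genotypes. Every member had at least 1.99 FPKM in each group, so the suprabasal fraction held mitotic transcripts too. Whether these came from suprabasal cells or from basal cells sorted into that fraction was not tested.

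**Figure D2:**
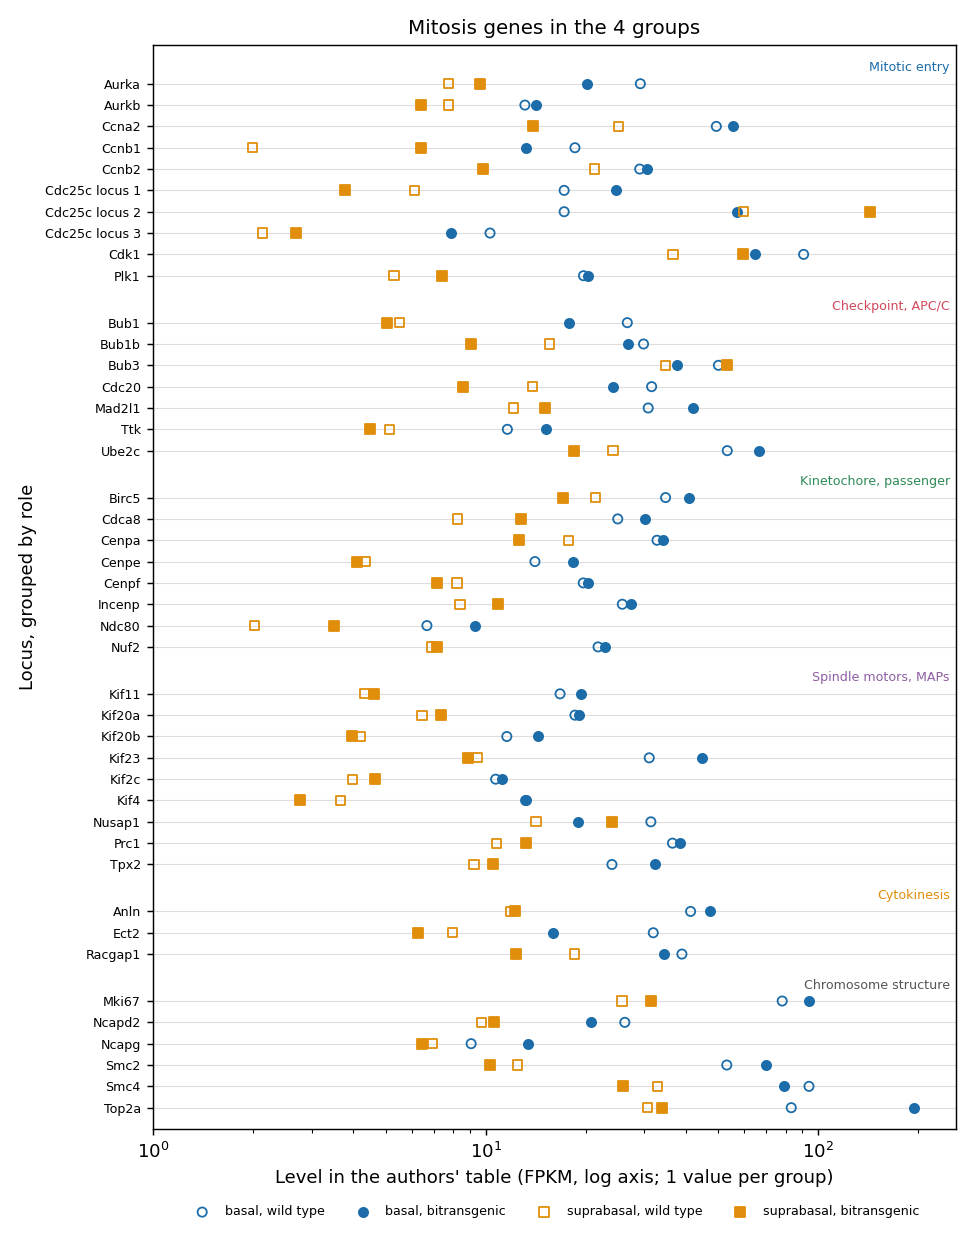
Level of each of the 43 mitosis gene loci in the 4 groups, in FPKM on a log axis, with 1 value per group from the authors' tables and the loci grouped by role. Blue circles (basal) lie to the right of orange squares (suprabasal) for nearly every locus, the open symbols are wild type and the filled ones bitransgenic, and the filled blue circle of Top2a at 196 FPKM is the highest value of the set.

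The sort was checked on markers of the layers. All 12 basal keratinocyte markers, among them Krt5, Krt14, Itga6 and Trp63, had the higher level in basal cells in both genotypes, by a median of 2.13-fold in wild type and 2.10-fold in bitransgenic cells. The median ratios of the mitosis genes, 2.76-fold and 2.86-fold, lay above those of these basal markers. The 12 suprabasal keratinocyte markers were less uniform. At least 2-fold higher in suprabasal cells were 7 in wild type and 6 in bitransgenic cells, while 1 and 3 had the higher level in basal cells. Their median basal over suprabasal ratio was 0.400-fold in wild type and 0.529-fold in bitransgenic cells. Markers of other cell types were detected to differing degrees. The summed level of the melanocyte markers was 8.38 FPKM in wild type and 12.9 FPKM in bitransgenic basal cells, where 3 of 8 were measured. In suprabasal cells, with 8 of 8 measured, it was 2073 FPKM in wild type and 3843 FPKM in bitransgenic cells, and none of the 8 was called. Fibroblast markers summed to 43.0 and 57.9 FPKM in basal cells (3 of 8 measured) and to 36.2 and 55.8 FPKM in suprabasal cells (6 of 8 measured). Of the leukocyte markers only Cd74 was measured, at 5.02 to 7.14 FPKM in the 4 groups, and of 6 endothelial markers none was measured. The parts of melanocytes and of basal cells sorted into the suprabasal fraction in its levels of mitosis genes were not tested.

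Genes of mitotic entry include the cyclins that activate the kinase Cdk1, the phosphatase Cdc25c that removes its inhibitory phosphates, and the mitotic kinases Plk1, Aurka and Aurkb. They were the least uniform group, with 6 of 10 loci at least 2-fold higher in basal than suprabasal wild type cells and 8 of 10 in bitransgenic cells. Ccnb1, the B-type cyclin of the main mitotic kinase (chr13:100778646-100786592 in mm10), had the largest ratio of the set in wild type cells, 18.6 FPKM in basal against 1.99 FPKM in suprabasal cells or 9.36-fold. In bitransgenic cells its level was 13.3 FPKM in basal and 6.39 FPKM in suprabasal cells, a ratio of 2.08-fold. Ccnb2, its paralogue (chr9:70407689-70421565), had the smaller ratio in wild type, where basal cells had 29.1 FPKM and suprabasal cells 21.3 FPKM, a ratio of 1.37-fold, and with 30.6 FPKM in basal and 9.85 FPKM in suprabasal bitransgenic cells, a ratio of 3.11-fold. In the suprabasal layer Ccnb1 thus had the higher level in bitransgenic and Ccnb2 in wild type cells.

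Ccna2, cyclin A, stood at 49.5 FPKM in wild type and 55.7 FPKM in bitransgenic basal cells and at 25.1 and 13.9 FPKM in suprabasal cells. Its wild type ratio of 1.97-fold lay just under the 2-fold limit, and its bitransgenic ratio was 4.02-fold. The Ccna2 locus spans 19.5 kb, shared by 2 loci, where the gene measures 7.29 kb. Cdk1, among the highest members, stood at 90.7 and 64.7 FPKM in basal and at 36.7 and 59.6 FPKM in suprabasal cells. Its ratio was 2.47-fold in wild type and 1.09-fold in bitransgenic cells. The log2 fold change of Cdk1 between genotypes was -0.49 ± 0.53 in basal and 0.70 ± 0.56 in suprabasal cells. Neither passed the test, nor did their difference, suprabasal minus basal, of 1.19 ± 0.77. Plk1 differed little between genotypes in basal cells, at 19.7 and 20.4 FPKM, and stood at 5.30 and 7.37 FPKM in suprabasal cells. Aurka had 29.2 and 20.2 FPKM in basal and 7.74 and 9.62 FPKM in suprabasal cells, and Aurkb 13.1 and 14.2 FPKM in basal and 7.74 and 6.39 FPKM in suprabasal cells.

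The 3 loci of Cdc25c share 1 span on chromosome 18. The locus numbers of the tables run through the plus strand first, which holds for 96.4% of 277 single-gene loci of that chromosome, and by that order loci 1 and 2 lie on the strand opposite to the gene and locus 3 on the gene's own strand. Locus 3 had the layer order of most members, with 10.3 and 7.88 FPKM in basal and 2.14 and 2.68 FPKM in suprabasal cells. Locus 1 had 17.2 and 24.6 FPKM in basal and 6.11 and 3.77 FPKM in suprabasal cells, and its SEs between genotypes were 1.08 and 2.45. Locus 2 was the exception of the whole set: it had 17.2 FPKM in wild type and 57.1 FPKM in bitransgenic basal cells and 59.9 and 144 FPKM in suprabasal cells, the only member higher in suprabasal cells in both genotypes. Its log2 fold change between genotypes, 1.73 ± 2.005 in basal and 1.27 ± 1.30 in suprabasal cells, did not pass the test, and its basal SE was the largest of the set. Whether its fragments come from Cdc25c cannot be told apart here from RNA of the other strand.

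Genes of the spindle checkpoint keep the anaphase promoting complex inactive until the kinetochores are attached, and Cdc20 and Ube2c are that complex's activator and ubiquitin-conjugating enzyme. Of these 7 genes, 5 were at least 2-fold higher in basal cells of wild type and 6 of bitransgenic mice. Bub1, a kinase that recruits checkpoint proteins to the kinetochore, stood at 26.7 and 17.8 FPKM in basal and at 5.52 and 5.05 FPKM in suprabasal cells, with a wild type ratio of 4.84-fold. Bub1b, the checkpoint protein BubR1, stood at 29.9 and 26.8 FPKM in basal and at 15.6 and 9.03 FPKM in suprabasal cells. Cdc20 stood at 31.6 and 24.2 FPKM in basal and at 13.8 and 8.53 FPKM in suprabasal cells, and Ube2c at 53.4 and 66.6 FPKM in basal and 24.2 and 18.5 FPKM in suprabasal cells. The Cdc20 locus spans 9.28 kb, shared by 2 loci, where the gene measures 4.45 kb. Mad2l1, which binds Cdc20, stood at 30.9 and 42.0 FPKM in basal and at 12.1 and 15.1 FPKM in suprabasal cells, and the checkpoint kinase Ttk at 11.6 and 15.2 FPKM and at 5.13 and 4.49 FPKM. Bub3 had the weakest layer difference of this group, with 50.2 and 37.6 FPKM in basal and 34.8 and 53.4 FPKM in suprabasal cells, or 1.44-fold in wild type and 0.704-fold in bitransgenic cells. The span given for the Bub3 locus is 2962 kb, shared by 20 loci, where the gene measures 11.7 kb, and its SE was 1.82 in basal cells.

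Kinetochore and centromere proteins join chromosomes to spindle fibres, and the chromosomal passengers Birc5, Incenp and Cdca8 hold Aurora B at the centromere. This group was uniform: all 8 genes were at least 2-fold higher in basal cells of bitransgenic mice and 6 of 8 in wild type, Birc5 at 1.62-fold and Cenpa at 1.85-fold being the others. Ndc80, which binds microtubules, was the lowest member of the whole set in wild type basal cells, with 6.66 and 9.32 FPKM in basal and 2.02 and 3.49 FPKM in suprabasal cells. Its partner Nuf2, which lacks the promoter motifs, had 21.8 and 22.9 FPKM in basal and 6.88 and 7.13 FPKM in suprabasal cells, a ratio of 3.17-fold in wild type and 3.22-fold in bitransgenic cells. The other genes without motifs in the searched window had wild type ratios of 2.55-fold (Mad2l1) and 2.22-fold (Nusap1). Cenpa, the histone of the centromere, stood at 32.8 and 34.3 FPKM in basal and at 17.7 and 12.6 FPKM in suprabasal cells. The motor Cenpe stood at 14.1 and 18.3 FPKM in basal and at 4.35 and 4.10 FPKM in suprabasal cells, and Birc5, survivin, at 34.8 and 41.1 FPKM and at 21.5 and 17.1 FPKM. Cdca8, Cenpf and Incenp lay between 19.7 and 30.3 FPKM in the basal groups and between 7.13 and 12.8 FPKM in the suprabasal groups, which did not overlap.

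Spindle motors and microtubule-binding proteins were the group in which all 9 genes were at least 2-fold higher in basal wild type cells, and 8 of 9 in bitransgenic cells. Kif11, the motor that pushes the spindle poles apart, stood at 16.8 and 19.4 FPKM in basal and at 4.31 and 4.63 FPKM in suprabasal cells. Kif23, the motor of the centralspindlin complex, stood at 31.1 and 44.8 FPKM in basal and at 9.44 and 8.85 FPKM in suprabasal cells. Prc1, which bundles midzone microtubules, stood at 36.5 and 38.6 FPKM in basal and at 10.8 and 13.2 FPKM in suprabasal cells. Kif20a, Kif20b, Kif2c and Tpx2, which act on the midzone, the kinetochore end of microtubules or the spindle pole, lay between 10.7 and 32.3 FPKM in the basal groups and between 3.95 and 10.5 FPKM in the suprabasal groups. The Kif20a locus spans 53.1 kb where the gene measures 8.67 kb. Nusap1 was the exception, with 31.5 and 19.0 FPKM in basal and 14.2 and 23.97 FPKM in suprabasal cells, a ratio of 2.22-fold in wild type and 0.790-fold in bitransgenic cells. Its log2 fold change was -0.73 ± 0.59 in basal and 0.76 ± 1.24 in suprabasal cells, and neither passed the test. The span given for the Nusap1 locus is 41.7 kb, shared by 2 loci, where the gene measures 32.9 kb. Kif4, the X-linked member, stood at 13.2 FPKM in both genotypes of basal cells and at 3.66 and 2.76 FPKM in suprabasal cells.

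The cytokinesis genes Anln, Ect2 and Racgap1 were at least 2-fold higher in basal cells of both genotypes. Racgap1, the partner of Kif23, stood at 39.0 and 34.4 FPKM in basal and at 18.5 and 12.3 FPKM in suprabasal cells, and the actin-binding scaffold Anln at 41.4 and 47.5 FPKM and at 11.9 and 12.3 FPKM. Of the 6 chromosome structure genes 5 were at least 2-fold higher in basal cells of each genotype. The condensin subunit Smc4, the highest member in wild type basal cells, stood at 94.1 and 79.2 FPKM in basal and 32.9 and 25.99 FPKM in suprabasal cells, and the proliferation marker Mki67 at 78.2 and 93.8 FPKM and at 25.7 and 31.5 FPKM. Smc2, the partner of Smc4 in condensin, had the largest ratio of bitransgenic cells, 6.78-fold, with 53.2 and 69.9 FPKM in basal and 12.5 and 10.3 FPKM in suprabasal cells. The condensin subunit Ncapg had the smallest wild type ratio after Cdc25c locus 2, 1.31-fold, with 9.05 and 13.4 FPKM in basal and 6.90 and 6.46 FPKM in suprabasal cells, on a locus that spans 188 kb where the gene measures 30.6 kb. The condensin subunit Ncapd2 had 26.3 and 20.7 FPKM in basal and 9.71 and 10.6 FPKM in suprabasal cells, and lay just under the limit in bitransgenic cells at 1.96-fold.

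By locus, 31 of 43 members were at least 2-fold higher in basal cells of both genotypes, 3 in wild type only, 7 in bitransgenic only and 2 in neither. The ratio was the higher one in bitransgenic cells for 26 loci and in wild type cells for 17, which splits the set without a test. For these splits by genotype no share over all loci is given, so they do not set the members apart. Other lists of the cell cycle had lower shares past the same limit. The members and lists were chosen with earlier results of these data known, so this contrast is a description and not a test. Of 113 loci of other mitosis genes, 45 were at least 2-fold higher in basal cells of wild type (39.8%) and 42 of bitransgenic mice (37.2%). Of 45 S phase loci, the counts were 17 (37.8%) and 9 (20.0%). The factors that act on mitotic promoters reached 5 and 2 of 14 loci. In the list of cell cycle exit and inhibitor genes, which also names D-type cyclins, the counts were 1 and 0 of 13.

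**Figure D3:**
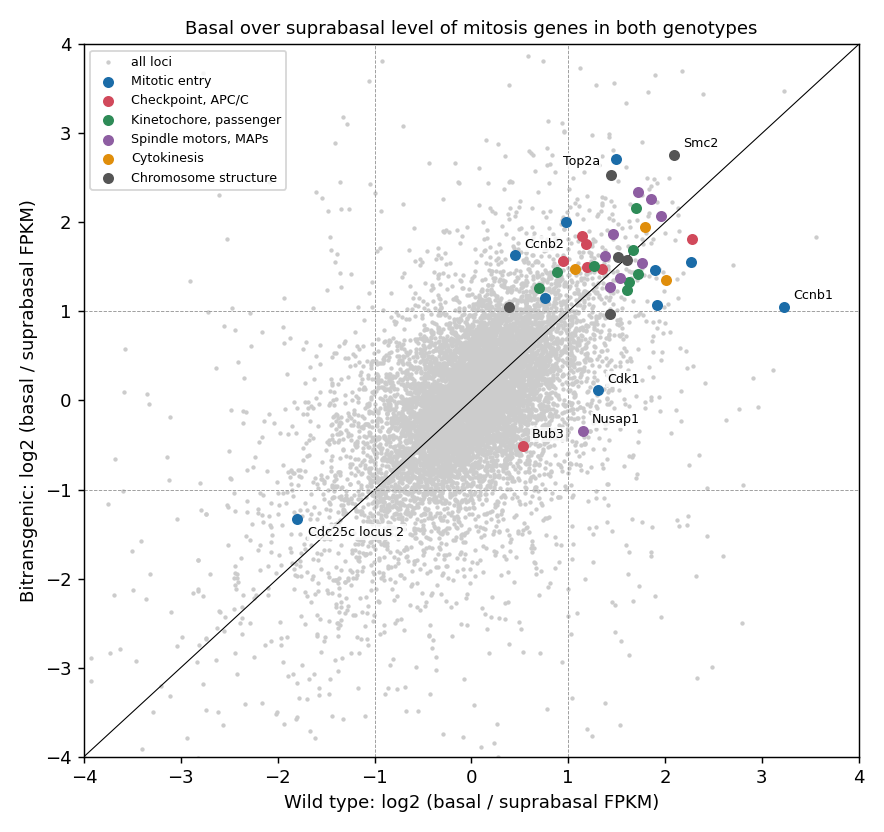
Basal over suprabasal level (log2 ratio of FPKM) of each locus in wild type cells on the horizontal axis and in bitransgenic cells on the vertical axis, with all loci in grey (85 lie outside the axes) and the 43 mitosis gene loci coloured by role. Dashed lines mark a 2-fold ratio and the diagonal equal ratios: 31 mitosis loci lie past 2-fold on both axes, while Cdk1, Nusap1, Bub3 and Cdc25c locus 2 lie well below the horizontal line at 2-fold and Ccnb1 lies far to the right.

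Differences of these genes between bitransgenic and wild type cells were read from the authors' deposited tables. The genotypes also differ in a sex-linked RNA, at the Xist locus described below, so effects of progerin and of sex cannot be told apart. In basal cells 2 of 43 members were called, where 1.65% of 11290 loci were called in all, 0.257% as higher and 1.39% as lower in bitransgenic cells. Top2a rose and Ect2 fell. The same 2 members were the only ones with the authors' p under 0.05, where 7.68% of all loci had such a p. In suprabasal cells no member was called by the authors' q or after Benjamini-Hochberg readjustment of the authors' p, where 0.471% of 11464 loci were called, and 2 of 43, Ccnb1 and Ccnb2, had a p under 0.05, where 7.11% of all loci did. A count of 2 among 43 loci is too small to set the members apart from the other loci.

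Top2a encodes topoisomerase II alpha, which untangles sister chromatids and is a structural part of mitotic chromosomes. Its locus (chr11:98992943-99024225 in mm10, minus strand, the whole gene) stood at 83.2 FPKM in wild type and 196 FPKM in bitransgenic basal cells, and at 30.7 and 33.9 FPKM in suprabasal cells. Basal bitransgenic cells thus had the highest level and wild type basal cells the next, and the suprabasal groups were lower and near each other. In the authors' deposited table the basal log2 fold change was 1.23 (2.35-fold, p = 5e-05, q = 0.00858), with an SE of 0.30 that is an upper bound because the p is the smallest the table holds. The suprabasal log2 fold change was 0.14 ± 0.43. Mki67, another marker of cycling cells at a like level, differed by 0.26 ± 0.33 in basal and 0.29 ± 0.37 in suprabasal cells, and no other chromosome structure gene was called.

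The Top2a locus also holds an annotated small nucleolar RNA gene of 122 bases on the same strand, Gm23451 (chr11:99017031-99017152), which overlaps 1 annotated Top2a exon. A short RNA gene on the same strand lay within 6 of 43 member loci, against 11.1% of single-gene loci in all. Its part in the Top2a level was not tested.

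Ect2 encodes the exchange factor that activates RhoA at the division furrow, where the complex of Kif23 and Racgap1 recruits it. Its locus (chr3:27097222-27153878, minus strand, the whole gene) stood at 32.0 FPKM in wild type and 16.0 FPKM in bitransgenic basal cells and at 7.94 and 6.26 FPKM in suprabasal cells, so that wild type was higher in both layers. The basal log2 fold change in the authors' deposited table was -1.002 (0.499-fold, p = 0.00355, q = 0.0493), with an SE of 0.34. The suprabasal one was -0.34 ± 0.41. The basal call lay close to the threshold: after Benjamini-Hochberg readjustment of the authors' p over all loci of status OK the adjusted p was 0.217, with centring on the median of expressed loci before the readjustment 0.417, and with the readjustment over loci of at least 5 FPKM 0.189. Over these settings the adjusted p of Top2a was 0.0128, 0.0276 and 0.0109, all past the threshold. Ect2's partners in the same step did not pass the test in basal cells: Kif23 differed by 0.53 ± 0.27 and Racgap1 by -0.18 ± 0.36.

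Among members that were not called, the B-type cyclins were the ones with the authors' p under 0.05 in suprabasal cells. Ccnb1 differed by 1.69 ± 0.80 (the authors' deposited table, p = 0.0341, q = 0.417) and Ccnb2 by -1.11 ± 0.53 (the authors' deposited table, p = 0.0370, q = 0.437), in opposite directions. In basal cells the same genes differed by -0.49 ± 0.46 and 0.07 ± 0.32. The other large suprabasal differences were 1.27 ± 1.30 for Cdc25c locus 2, 0.79 ± 0.70 for Ndc80, -0.86 ± 0.62 for Ccna2 and -0.79 ± 0.67 for Bub1b, none past the test. In basal cells they were 1.73 ± 2.005 for Cdc25c locus 2, 0.57 ± 0.50 for Ncapg, -0.73 ± 0.59 for Nusap1 and -0.59 ± 0.60 for Bub1, none past the test.

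As a set the members had a median close to 0 in each layer, above the median of all loci, which is a description without a test. The median log2 fold change was 0.08 in basal cells, where 30 of 43 loci lay above 0, and 0.04 in suprabasal cells, where 22 of 43 did. The medians over all loci were -0.12 and -0.08, with 39.7% and 43.4% of loci above 0. The middle 50% of members spanned 0.56 in basal cells, against 0.70 for all loci, and 0.65 against 0.71 in suprabasal cells. By role the basal medians ran from -0.18 for cytokinesis and -0.16 for the checkpoint to 0.06 for entry, 0.08 for spindle, 0.16 for kinetochore and 0.33 for chromosome structure genes. All 8 kinetochore and passenger genes lay between 0.05 and 0.49 in basal cells, and in suprabasal cells 4 lay above and 4 below 0. The SEs had a median of 0.34 in basal cells and of 0.56 in suprabasal ones. The 95% interval of the fold change excluded a 2-fold difference in either direction for 24 of 43 loci in basal but for 6 of 43 in suprabasal cells, so that a 2-fold difference in suprabasal cells lay within the interval of most members.

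**Figure D4:**
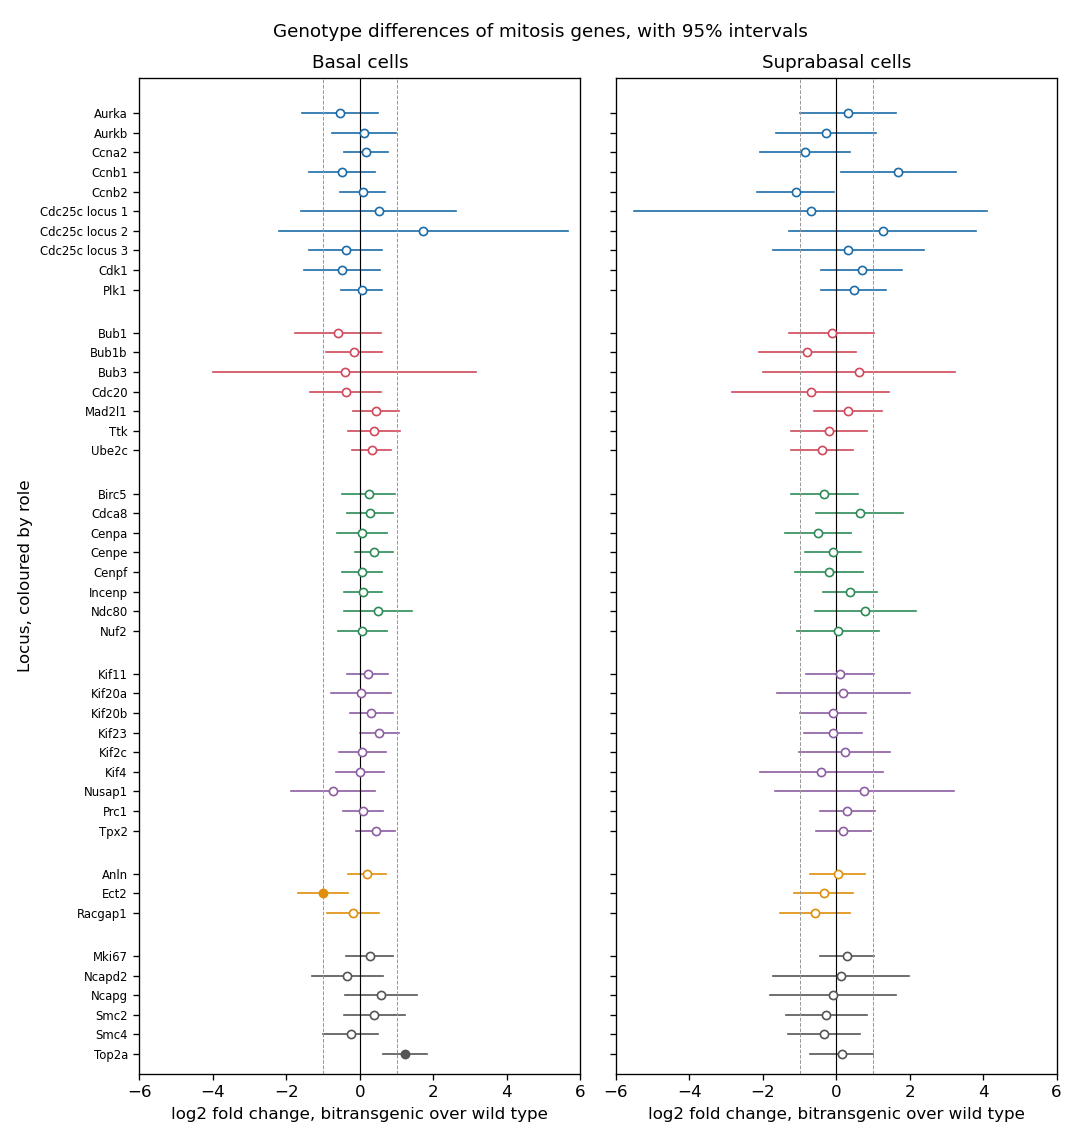
Log2 fold change of each mitosis gene locus, bitransgenic over wild type, in basal (left) and suprabasal cells (right), with 95% intervals from the SE implied by the authors' p and loci coloured by role. Filled circles passed the authors' q under 0.05, which are Top2a at 1.23 and Ect2 at -1.002 in basal cells, and dashed lines mark a 2-fold difference: most intervals cross 0, and those on the right are wider.

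The difference of the genotype effect between the layers, suprabasal minus basal, was tested per locus with a two-sided Wald z-test that treats the layers as independent. No member passed at a Benjamini-Hochberg adjusted p under 0.05, where 0.0378% of 10583 loci did. An unadjusted p under 0.05 was reached by 2 of 43 members, Ccnb1 and Top2a, where 3.08% of all loci reached it. The difference was 2.17 ± 0.92 for Ccnb1, with an unadjusted Wald p of 0.0182. It was -1.09 ± 0.53 for Top2a, with an unadjusted Wald p of 0.0396. Both rest on SEs implied by the authors' p-values, and after Benjamini-Hochberg adjustment over all loci the p was 1 for each. The log2 fold changes of the layers had opposite signs for 22 of 43 loci, 15 were above 0 and 6 below 0 in both layers. Shares over all loci are not given here, so these sign counts do not set the members apart.

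Other genes of mitosis were read from a list of 130 names. None of 123 basal or 113 suprabasal loci was called by the authors' q or after Benjamini-Hochberg readjustment. The authors' p was under 0.05 for 5 basal loci and for 0 suprabasal loci. Over all loci 7.68% in basal and 7.11% in suprabasal cells had such a p, so the 5 do not set the list apart. The median log2 fold change of the list was -0.10 in basal cells, and it was 0.05 in suprabasal ones. The 5 were Spc24, a subunit of the Ndc80 complex, with 6.62 FPKM in wild type and 13.4 FPKM in bitransgenic cells, the kinase Nek2 with 24.4 and 11.2, the centromere histone chaperone Hjurp with 36.1 and 18.8, the Cdk1 inhibitory kinase Pkmyt1 with 13.9 and 7.43, and Fam83d with 13.4 and 7.90 FPKM. The largest further basal differences were 1.59 ± 1.91 for Cenpw, 1.18 ± 1.68 for Anapc10, -1.29 ± 0.95 for Spag5 and -1.08 ± 0.65 for Fam64a. In suprabasal cells they were 0.92 ± 0.71 for the merged locus of Haus3 and Poln, 0.88 ± 0.81 for Ska2, 0.85 ± 0.65 for Kpna2, -1.60 ± 1.81 for Cenpk, -1.40 ± 1.13 for Cdkn3 and -1.002 ± 0.67 for Haus6. None of these passed the test.

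The factors that bind mitotic promoters were not called in either layer. Foxm1, on a merged locus, stood at 21.2 and 17.7 FPKM in basal and at 6.03 and 8.13 FPKM in suprabasal cells, the layer order of most members. Mybl2, the MYB protein of the activating complex, stood at 4.35 and 5.94 FPKM in basal and at 1.94 and 7.90 FPKM in suprabasal cells, where its log2 fold change was 2.03 ± 0.85 (the authors' deposited table, p = 0.0169, q = 0.267). Lin37, a subunit of the repressing complex, stood at 22.1 and 5.47 FPKM in basal cells (the authors' deposited table, p = 0.0346, q = 0.303) and at 9.55 and 12.0 FPKM in suprabasal cells. E2f4, the E2F protein of the same complex, stood at 24.9 and 36.6 FPKM in basal cells (the authors' deposited table, p = 0.0497, q = 0.391).

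Other measures moved with genotype beside the basal calls of Top2a and Ect2. The summed level of the 12 basal keratinocyte markers was 19149 FPKM in wild type and 12295 FPKM in bitransgenic basal cells and 8897 and 4879 FPKM in suprabasal cells, and 1 of the 12 was called, Krt15, which fell in both layers. The 12 suprabasal markers summed to 8737 and 10808 FPKM in basal cells, where Dsc1 rose and Lor fell, and to 18908 and 14374 FPKM in suprabasal cells with none called. Of the 3 fibroblast markers measured in basal cells Col5a2 was called and fell, and 1 other rose with the authors' p under 0.05 but was not called. Their summed level was 43.0 FPKM in wild type and 57.9 FPKM in bitransgenic basal cells. The merged locus that holds Xist stood at 0.258 and 108 FPKM in basal and at 0.236 and 103 FPKM in suprabasal cells, so the genotypes differ in a sex-linked RNA. In both layers a difference of sex between the groups cannot be told apart from one of genotype. The part of these differences in the levels of Top2a and Ect2 was not tested.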

How the data were processed

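Libraries were strand-specific and made with an amplifying kit from 10 ng of RNA of sorted keratinocytes, per the labels' protocols. TopHat, Cufflinks and the build mm10 are listed without versions, per the submitters' processing notes, and the scaling of the libraries is not given in the sources used here. The authors' deposited tables (basal 11316 loci, suprabasal 11490, of which 11290 and 11464 have the status OK) have the form of Cuffdiff output, with 1 group level per genotype read as FPKM because the headers name no unit. Fold changes were deposited on the log2 scale. The authors also give a test statistic (a score), a p-value and a q-value. Depth per sample is unknown, so no counting interval is given.

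A call was the authors' q under 0.05. The SE of a log2 fold change was its size over the normal quantile that matches the authors' two-sided p, since the statistic did not give that p (median ratio to the normal quantile 0.631 in basal and 0.628 in suprabasal cells). It is an upper bound for the 44 basal and 35 suprabasal loci at the smallest p, 5e-05. Layer differences were tested with a Wald z-test and Benjamini-Hochberg adjustment over 10583 loci, with Python 3.11.15, pandas 2.3.3 and scipy 1.17.1. The procedure was run on simulated data with the same normal model, SEs and independent layers, so the run does not check those assumptions. The differences planted there were larger than that of any member. Starts were written 1-based: start plus 1 is the annotated GENCODE start for 43.0% of 10346 single-gene loci, and the start as written for 1.17%. Promoters come from RefSeq (GRCm38.p6), and a gene counted as holding a motif if any of its promoters did.

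Any member could be named. Values in all groups were due for members called, those with the authors' p under 0.05, the 3 largest rises and falls per layer, the 3 largest and smallest layer ratios per genotype, and the 3 highest and lowest levels in wild type basal cells. Of other mitosis genes the 3 largest rises and falls per layer with at least 1 FPKM were named. The members and lists were chosen with earlier results of these data known. Alternatives were Benjamini-Hochberg readjustment, centring on the median of loci with at least 1 FPKM, a minimum of 5 FPKM, pseudocounts of 1 and 5 FPKM, a fold limit of 1.5, the SE from the statistic, and leaving out merged loci. Leaving out the Cdc25c loci numbered on the other strand was chosen after seeing the data.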

Additional observations from a re-analysis of the deposited data

How the results depend on the processing

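The 2 basal calls became 1 after Benjamini-Hochberg readjustment of the authors' p, 1 after centring on the median of expressed loci and 1 with a minimum of 5 FPKM, both of which include the same readjustment. The call lost was that of Ect2 in each case, with an adjusted p of 0.217 from the readjustment alone, 0.417 with centring and 0.189 with the minimum. Top2a stayed called. The readjustment calls 63 basal and 47 suprabasal loci in all, against 186 and 54 by the authors' q. Centring subtracts -0.11 in basal and -0.08 in suprabasal cells. It moved the basal median of the members from 0.08 to 0.19. With a minimum of 5 FPKM, which 36 of 43 suprabasal loci pass, the suprabasal median went from 0.04 to -0.026. The counts of members called in suprabasal cells, called among other mitosis genes and called in the layer difference were 0 under each alternative run. The count at least 2-fold higher in basal cells ranged from 33 to 34 in wild type and from 35 to 38 in bitransgenic cells, the lowest in wild type being that without the Cdc25c loci numbered on the other strand. At a fold limit of 1.5 it was 39 in each genotype, where 17.0% of all loci passed in wild type and 20.4% in bitransgenic cells. No paired analysis was possible because the deposited tables give 1 value per group, which also bars leaving out single replicates. The members' SEs were larger in suprabasal than in basal cells, with medians of 0.56 and 0.34.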

Other observations

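The list of cell cycle exit and inhibitor genes was the cell cycle list that lay furthest from 0 between genotypes by its median, though none of its loci was called. The list also names the D-type cyclin genes, so its counts and medians are not those of inhibitors alone. In basal cells 11 of 13 loci lay below 0, with a median log2 fold change of -0.63 where that of all loci was -0.12. In suprabasal cells 13 of 14 lay below 0, with a median of -0.40 where that of all loci was -0.08. Of all loci, 6806 of 11290 lay below 0 in basal and 6492 of 11464 in suprabasal cells. Btg2, an antiproliferative gene induced by p53, stood at 162 FPKM in wild type and 94.5 FPKM in bitransgenic basal cells and at 171 and 83.0 FPKM in suprabasal cells. The Cdk inhibitor gene Cdkn1b stood at 24.8 and 14.0 FPKM in basal cells and at 36.7 and 26.8 FPKM in suprabasal cells. Cdkn2d, another Cdk inhibitor gene, stood at 23.2 and 11.8 FPKM in basal and at 13.2 and 8.36 FPKM in suprabasal cells. The authors' p was under 0.05 for these 3 genes in basal cells and for Btg2 in suprabasal cells, and no q was under 0.05. Over all loci 7.68% in basal and 7.11% in suprabasal cells had such a p.

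Among S phase genes none was called in either layer, and the medians were 0.04 in basal and 0.11 in suprabasal cells. The authors' p was under 0.05 for Pold1, the catalytic subunit of DNA polymerase delta, at 28.9 and 11.5 FPKM, and for the merged locus of E2f1 and Necab3, at 11.4 and 6.07 FPKM, in basal cells. In suprabasal cells it was under 0.05 for Mcm10 at 2.74 and 8.82 FPKM and for the histone mRNA binding protein gene Slbp at 33.9 and 12.4 FPKM. Such a p was held by 7.68% of all loci in basal and 7.11% in suprabasal cells, so these counts do not set the S phase genes apart.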
